A study of Mus musculus with 2 samples.

Results

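Coro2a, Gdpd3 and Msh5 are 3 of the 27706 genes with a column in either of 2 single-cell RNA tables from mouse bone marrow. They were chosen by their UMI counts, which were nearly on or off between the libraries, so every difference below describes that choice and carries no test. Both libraries were made from ICR mice of 7 to 8 weeks, whose marrow was cleared of mature lineages on magnetic beads to enrich haematopoietic stem and progenitor cells, and were built on the BD Rhapsody system, which tags each captured molecule with a UMI (a molecular barcode). Hypoxia mice were kept for 13 days at 52.93 kPa, the pressure of 5000 m, in a chamber whose air held 19.5% oxygen. The control group was killed on reaching Xining and had no chamber period. Chamber, time, arrival and differences between the mice themselves, such as genotype, therefore cannot be told apart. Each group is 1 library, the sources used here do not give the number of mice behind it, and there is no replicate check. Intervals are 95% and cover counting error only.

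Coro2a encodes a coronin, a WD-repeat protein that binds actin and that has also been found with the NCoR transcriptional corepressor complex. Gdpd3 encodes a membrane enzyme of the glycerophosphodiester phosphodiesterase family, which acts as a lysophospholipase D and releases lysophosphatidic acid or N-acylethanolamines from lysophospholipids. Msh5 encodes a MutS homologue that pairs with Msh4 and stabilises crossover intermediates in meiosis, and it is known mainly from germ cells.

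In the annotation of the files' build (GRCm38, GENCODE M21), Coro2a lies on the minus strand of chromosome 4 from 46536937 to 46602202, with 12 exons in its longest coding transcript. Gdpd3 lies on the plus strand of chromosome 7 from 126766334 to 126775649 and has 10 exons. Msh5 lies on the minus strand of chromosome 17 from 35028605 to 35046745 and has 24 exons. Antisense genes overlap Coro2a (Gm16731) and Gdpd3 (Gm9967) and had no column in either table. The sources used here do not say whether counting used strand, so reads of such partners cannot be told apart from those of the gene.

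RefSeq (GRCm38.p6) promoter windows were matched for 3 of 3 genes. The bases upstream of a start site and outside every GENCODE exon are shown for Coro2a and Gdpd3, the genes whose counts were higher in hypoxia. Coro2a has 2 start sites, and the stretch shown, chr4:46566459-46566690 on the minus strand, lies in an intron of the longer transcript, before the internal start. The Gdpd3 stretch is chr7:126766164-126766333 on the plus strand. Capitals mark matches, on either strand, to CCAAT (the CCAAT box) or ACGTG (a core of hypoxia-response elements).
Coro2a: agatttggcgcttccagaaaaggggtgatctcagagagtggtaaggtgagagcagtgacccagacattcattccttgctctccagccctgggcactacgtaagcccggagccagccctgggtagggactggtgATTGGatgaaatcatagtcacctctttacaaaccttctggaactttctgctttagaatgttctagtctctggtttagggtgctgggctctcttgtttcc
Gdpd3: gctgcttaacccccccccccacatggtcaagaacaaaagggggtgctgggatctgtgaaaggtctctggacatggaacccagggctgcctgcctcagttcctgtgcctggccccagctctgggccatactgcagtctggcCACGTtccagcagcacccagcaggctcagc
The Coro2a stretch of 232 bases held 1 CCAAT match, and 32.4% of 32851 promoter windows held one in the same bases. The Gdpd3 stretch of 170 bases held 1 ACGTG match, as did 10.5% of windows. No match on either strand was found in these stretches for the GC box GGGCGG, the TATA box TATAAA, the E-box CACGTG (which contains ACGTG), the other hypoxia-response core GCGTG, the CRE motif TGACGTCA, the ETS motif CCGGAAGT or the GATA motif AGATAA. These matches are a description of the letters and not of factor binding.

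After removal of cells with 20% or more mitochondrial UMIs and of doublets, 6280 hypoxia and 3917 control cells were kept, with medians of 21344.5 and 32156 UMIs per cell. The libraries shared 23 cell barcodes. Cells were assigned to classes from marker lists, with gates set after the data were seen, and 8 classes had at least 50 cells in both libraries. Every one of these classes had more of its own markers than of any other class among its 10 leading genes. The same lists set the gates, so this outcome was largely fixed by the gating and is no independent check. The stem and multipotent progenitor (HSC/MPP) class had only Hlf and Ly6a of its own list among its 10 leading genes. Il7r, Gata3 and Ccr9 of other lists were there too. The granulocyte-monocyte progenitor-like class had 4 of its own markers and 3 of the monocyte list among its 10. Its median sum of monocyte markers was 25.15 UMIs per 10000 in hypoxia and 22.9 in control, above the monocyte gate of 20. Some 1555 hypoxia and 548 control cells passed more than 1 gate, 341 and 462 passed none, and 253 and 228 lay near a gate.

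Over all kept cells, Coro2a was at 38.5 CPM (UMIs per 1000000 summed UMIs) in hypoxia against 5.83 CPM in control, a ratio of 6.60 (6.10 to 7.16). Gdpd3 had 40.8 and 6.94 CPM, a ratio of 5.88 (5.46 to 6.33). Msh5 went the other way, at 2.18 against 13.4 CPM, a ratio of 0.163 (0.143 to 0.184). Of 14062 genes measured with 50 or more UMIs in the libraries together, 1.4% were at least 4-fold higher in hypoxia, as Coro2a and Gdpd3 were by choice, and 0.683% were at least 4-fold lower, as Msh5 was. The median gene present in both libraries was 0.10 higher in hypoxia on the log2 scale, and with that shift removed the log2 ratios of CPM + 10 were 1.56 for Coro2a, 1.52 for Gdpd3 and -0.98 for Msh5. In pooled counts, fewer cells of a type and less RNA per cell cannot be told apart, which is why the levels are given by class.

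**Figure D1:**
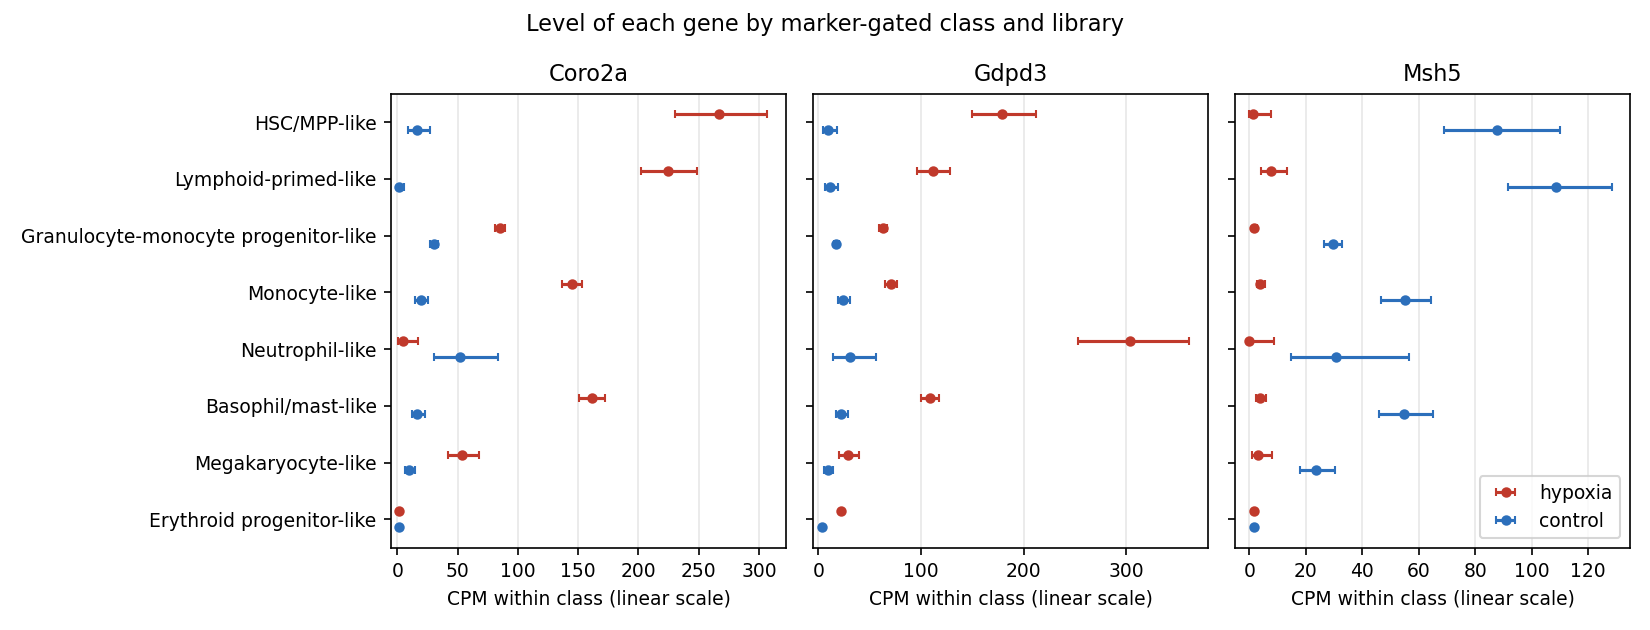
Level of Coro2a, Gdpd3 and Msh5 in 8 marker-gated classes, in CPM of the summed UMIs of each class on a linear axis, with hypoxia in red, control in blue and exact 95% Poisson intervals as bars. Erythroid progenitor-like cells sit at 1.05 and 1.21 CPM for Coro2a and at 1.76 and 1.79 CPM for Msh5, while Gdpd3 is at 22.4 and 3.59 CPM there.

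Coro2a was detected across stem, lymphoid and myeloid classes of the hypoxia library and was near absent from its erythroid cells. HSC/MPP-like cells had the highest level, at 267 CPM in hypoxia against 16.4 CPM in control. The intervals of HSC/MPP-like and lymphoid-primed-like cells overlapped in hypoxia, and the latter were at 225 CPM. In control, lymphoid-primed-like cells held only 2 Coro2a UMIs (1.55 CPM), which gives a ratio of 145 with an interval of 39.8 to 1198. Basophil/mast-like cells were at 161 against 16.6 CPM and monocyte-like cells at 145 against 19.3 CPM. Granulocyte-monocyte progenitor-like cells had a smaller ratio, 84.9 against 30.4 CPM or 2.79 (2.48 to 3.14). Its size depended on the gates. The log2 ratio of CPM + 10 was 1.23, but 0.997 with gates doubled and 1.64 in Leiden clusters. Without cells that pass more than 1 gate, which left 305 hypoxia and 188 control cells, it was 1.57. Megakaryocyte-like cells were at 53.9 against 9.61 CPM. With doubled gates their log2 ratio of CPM + 10 was 0.75 in place of 1.71, and that of HSC/MPP-like cells was 4.43 in place of 3.39.

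Erythroid progenitor-like cells, the most numerous class with 3305 hypoxia and 2182 control cells, had 1.05 CPM of Coro2a in hypoxia and 1.21 CPM in control, and the interval of the ratio held 1 (0.651 to 1.15). Neutrophil-like cells stood in the opposite direction, with 2 Coro2a UMIs in 109 hypoxia cells (4.82 CPM) against 17 UMIs in 69 control cells (52.2 CPM). Their ratio was 0.0924 (0.0104 to 0.389). The order of the classes therefore differed between the libraries: neutrophil-like cells had the highest Coro2a level in control, with an interval that overlapped that of granulocyte-monocyte progenitor-like cells, and in hypoxia lay with erythroid progenitor-like cells at the bottom. Across the 8 classes, the log2 levels in the libraries had a Pearson r of -0.08, a description over points that share a library.

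Neutrophil markers had ratios nearer 1 in the 2 neutrophil-like sets than genes of earlier granulocyte stages. The 6 markers S100a8, S100a9, Ltf, Camp, Ngp and Lcn2 had ratios between 0.763 (S100a9) and 0.999 (Lcn2). These markers also define the neutrophil gate. Their ratios are therefore partly set by the choice of cells and do not show that the 2 sets are alike. Counting intervals left out 1 for S100a9, Camp and Ngp, all lower in hypoxia. The 5 genes of earlier granulocyte stages had ratios from 0.276 (Mpo) to 2.63 (Prtn3). Mpo (myeloperoxidase) was at 62.7 CPM in hypoxia against 227 CPM in control and Ctsg (cathepsin G) at 21.7 against 73.7 CPM, while Prtn3 (proteinase 3) was at 347 against 132 CPM and Ms4a3, a membrane protein of granulocyte progenitors, at 164 against 101 CPM. Elane (neutrophil elastase) was at 123 against 85.9 CPM, and its interval held 1 (0.885 to 2.36). The part of these differences in the Coro2a values was not tested.

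Cells gated as granulocyte-monocyte progenitor-like were then split into terciles of the summed UMIs of Elane, Prtn3 and Ctsg, serine proteases of the azurophil granule that accumulate as progenitors take the neutrophil path. The split was chosen after the data were seen, with cuts at 59.7 and 106 UMIs per 10000 over both libraries. In hypoxia, Coro2a was at 140 CPM in the lowest tercile, 89.0 CPM in the middle and 33.0 CPM in the highest. In control it was at 17.8, 29.2 and 40.4 CPM. The library ratio was thus 7.91 (6.11 to 10.4) in the lowest tercile, 3.04 (2.44 to 3.84) in the middle and 0.817 in the highest, where the interval (0.667 to 1.002) held 1. Within hypoxia the highest tercile was at 0.235 times the lowest (0.199 to 0.276), and within control at 2.27 times (1.71 to 3.06).

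Shares of cells at equal depth had the same order, which the counting intervals resolved in hypoxia only. With every cell thinned to 5000 UMIs, a Coro2a UMI was found in 51.1%, 32.4% and 13.8% of hypoxia cells from the lowest to the highest tercile. In control cells the shares were 7.95%, 11.9% and 15.9%. Their intervals overlapped, at 4.17% to 13.5% in the lowest tercile and 10.6% to 22.6% in the highest. Other genes of the path differed between the libraries within a tercile. S100a8, a neutrophil marker, was at 136 against 456 CPM in the highest tercile and at 55.9 against 6.75 CPM in the middle. Irf8, a transcription factor of the monocyte path, was at 487, 463 and 91.1 CPM over the terciles in hypoxia and at 329, 246 and 51.8 CPM in control. Ly6c2, found on monocytes and their progenitors, was at 2271 against 3318 CPM in the highest tercile. The part of these differences in the Coro2a values was not tested. Without the cells that held an S100a8 or S100a9 UMI, and with terciles cut anew, Coro2a was at 152, 98.0 and 57.0 CPM in hypoxia and at 16.4, 30.2 and 32.7 CPM in control. The library ratio in the highest tercile then turned from 0.817 to 1.74 (1.40 to 2.18), while with gates doubled it was 0.643 (0.508 to 0.813).

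**Figure D2:**
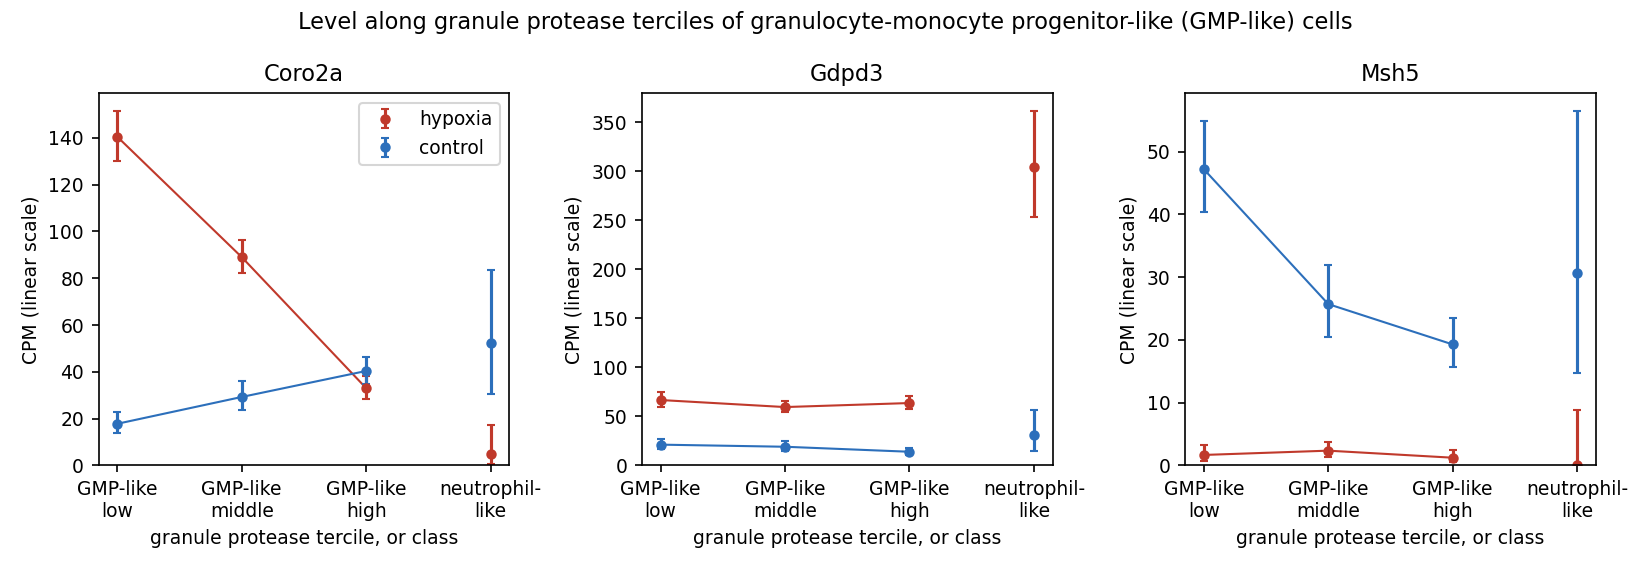
Level of each gene (CPM, linear axis from 0) in 3 granule protease terciles of granulocyte-monocyte progenitor-like cells and in neutrophil-like cells, for hypoxia (red) and control (blue), with exact 95% Poisson intervals. For Coro2a the hypoxia points run from 140 to 33.0 CPM over the terciles and the control points from 17.8 to 40.4 CPM, and the neutrophil-like points are at 4.82 and 52.2 CPM.

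Gdpd3 did not show this split. It was at 66.6, 59.4 and 63.5 CPM over the protease terciles in hypoxia and at 21.1, 19.0 and 13.9 CPM in control. Its level was higher in hypoxia in all 8 classes, with intervals above 1, and ratios ran from 2.93 in monocyte-like to 19.1 in HSC/MPP-like cells. Neutrophil-like cells had the highest level in both libraries, at 304 CPM in hypoxia and 30.7 CPM in control, or 9.90-fold (5.21 to 21.1), though the control level rests on 10 UMIs and its interval overlapped that of monocyte-like cells. The difference was not detectable in the few neutrophil-like cells with 5000 UMIs or more. HSC/MPP-like cells followed in hypoxia at 179 against 9.36 CPM. The level was 111 against 11.7 CPM in lymphoid-primed-like cells and 109 against 22.4 CPM in basophil/mast-like cells, and their hypoxia intervals overlapped. Granulocyte-monocyte progenitor-like cells were at 62.7 against 17.4 CPM and monocyte-like cells at 70.9 against 24.2 CPM.

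Unlike Coro2a, Gdpd3 was also higher in the erythroid lineage. Erythroid progenitor-like cells had 22.4 CPM in hypoxia and 3.59 CPM in control, or 6.25-fold (5.56 to 7.04). Split into terciles of globin UMIs, these cells were at 24.2, 23.0 and 20.6 CPM in hypoxia and at 4.21, 3.17 and 2.71 CPM in control. Megakaryocyte-like cells held few Gdpd3 UMIs, 37 against 23 (28.5 against 9.21 CPM), and 1 hypoxia cell held 40.5% of the hypoxia UMIs. The interval of the ratio there was 1.79 to 5.46.

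Msh5 was found chiefly in control cells outside the erythroid lineage. Lymphoid-primed-like cells had the highest control level, at 109 CPM against 7.79 CPM in hypoxia, and HSC/MPP-like cells had 87.8 CPM against 1.37 CPM. The latter is 1 UMI, and control over hypoxia was 64.2 there (11.2 to 2569). The intervals of these control levels overlapped. Monocyte-like cells were at 55.05 CPM in control against 3.79 CPM in hypoxia, basophil/mast-like cells at 54.8 against 3.81 CPM, granulocyte-monocyte progenitor-like cells at 29.6 against 1.79 CPM and megakaryocyte-like cells at 23.6 against 3.08 CPM. In neutrophil-like cells 10 control UMIs (30.7 CPM) stood against 0 in hypoxia, at least 4.24-fold lower by the limit of 3 counts in the hypoxia class, while the exact interval of the ratio of hypoxia over control reached 0.350. In the 4 classes from monocyte-like to megakaryocyte-like the levels in the control library were 7.66 to 16.5 times those in hypoxia.

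Erythroid progenitor-like cells had 1.76 CPM of Msh5 in hypoxia and 1.79 CPM in control, a ratio of 0.981 (0.785 to 1.23). Along the protease terciles the control level was 47.2, 25.7 and 19.3 CPM, and the hypoxia level was 1.66, 2.34 and 1.22 CPM. Control cells that passed no gate had 86.4 CPM, against 4.52 CPM in hypoxia. Of the 8 classes, the interval of the ratio lay below 1 in 7 for Msh5 and above 1 in 6 for Coro2a.

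At 5000 UMIs per cell, Coro2a was detected in 18.5% of hypoxia cells (17.5% to 19.5%, Clopper-Pearson) and 3.82% of control cells (3.22% to 4.49%), against 31.1% and 11.7% at full depth. Gdpd3 was detected in 18.4% (17.4% to 19.4%) and 5.28% (4.58% to 6.06%), against 43.1% and 16.9% at full depth. Msh5 was detected in 1.06% (0.813% to 1.36%) and 10.3% (9.29% to 11.3%), against 4.17% and 23.4% at full depth. The thinning left out 537 hypoxia and 301 control cells that had fewer UMIs. Few erythroid progenitor-like cells held Coro2a or Msh5: at 5000 UMIs, 0.545% and 0.825% of hypoxia and control cells held a Coro2a UMI and 0.757% and 0.687% an Msh5 UMI. Whether these few UMIs came from the cells themselves was not tested. The median depths of this class were 27310 and 41541 UMIs, above those of the other classes.

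By class, the thinned share of hypoxia cells with Coro2a was 66.9% in lymphoid-primed-like, 60.9% in HSC/MPP-like, 53.6% in basophil/mast-like, 48.8% in monocyte-like, 32.5% in granulocyte-monocyte progenitor-like and 26.2% in megakaryocyte-like cells. The control shares were 2.20%, 12.7%, 8.82%, 10.3%, 12.0% and 1.37% in that order. For Gdpd3 the hypoxia share ran from 10.9% in erythroid progenitor-like to 47.8% in HSC/MPP-like cells over these 7 classes, and the control share from 2.66% to 13.2%. Msh5 reached 42.9% of lymphoid-primed-like and 39.7% of HSC/MPP-like control cells, against 2.16% and 1.45% in hypoxia. In granulocyte-monocyte progenitor-like cells its shares were 15.9% in control and 0.794% in hypoxia, the latter as low as in erythroid progenitor-like cells. Of the neutrophil-like cells 91 hypoxia and 44 control cells were too shallow for this comparison. Among the few left, 2 of 18 hypoxia cells (11.1%, 1.38% to 34.7%) and 2 of 25 control cells (8.00%, 0.984% to 26.0%) held a Gdpd3 UMI, so the difference in Gdpd3 was not detectable in the deeper neutrophil-like cells. At full depth the shares were 53.2% and 10.1%, at median depths of 3043 and 4000 UMIs.

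The most frequent count per cell was 0 for every gene in all 8 classes of the control library, at both thinned depths. In hypoxia it was 1 for Coro2a in lymphoid-primed-like cells at 5000 UMIs, by 47 cells with 1 UMI against 46 with none, a margin that another draw of UMIs could turn. At 10000 UMIs it was 1 in lymphoid-primed-like, HSC/MPP-like and basophil/mast-like cells, though only 20 HSC/MPP-like cells were deep enough. Of 77 lymphoid-primed-like hypoxia cells at that depth, 18.2% held no Coro2a UMI, 26.0% held 1 and 20.8% held 2. A Poisson count of the same mean would leave 10.7% without a UMI. Higher counts became steadily rarer, down to 1.30% of cells with 8 or more, and formed no peak of their own.

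Cells without a UMI were in excess of a Poisson count in other hypoxia classes too. In granulocyte-monocyte progenitor-like cells at 10000 UMIs, 49.2% had no Coro2a UMI against 40.6% for a Poisson count, and 58.5% had no Gdpd3 UMI against 50.8%. The variance of Coro2a was 1.702 times its mean there and 1.31 times in basophil/mast-like cells. For Msh5 in control, the shares without a UMI were 72.1% against 70.4% in granulocyte-monocyte progenitor-like cells, 50% against 39.6% in lymphoid-primed-like, 63.3% against 56.1% in monocyte-like and 61.8% against 53.9% in basophil/mast-like cells.

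**Figure D3:**
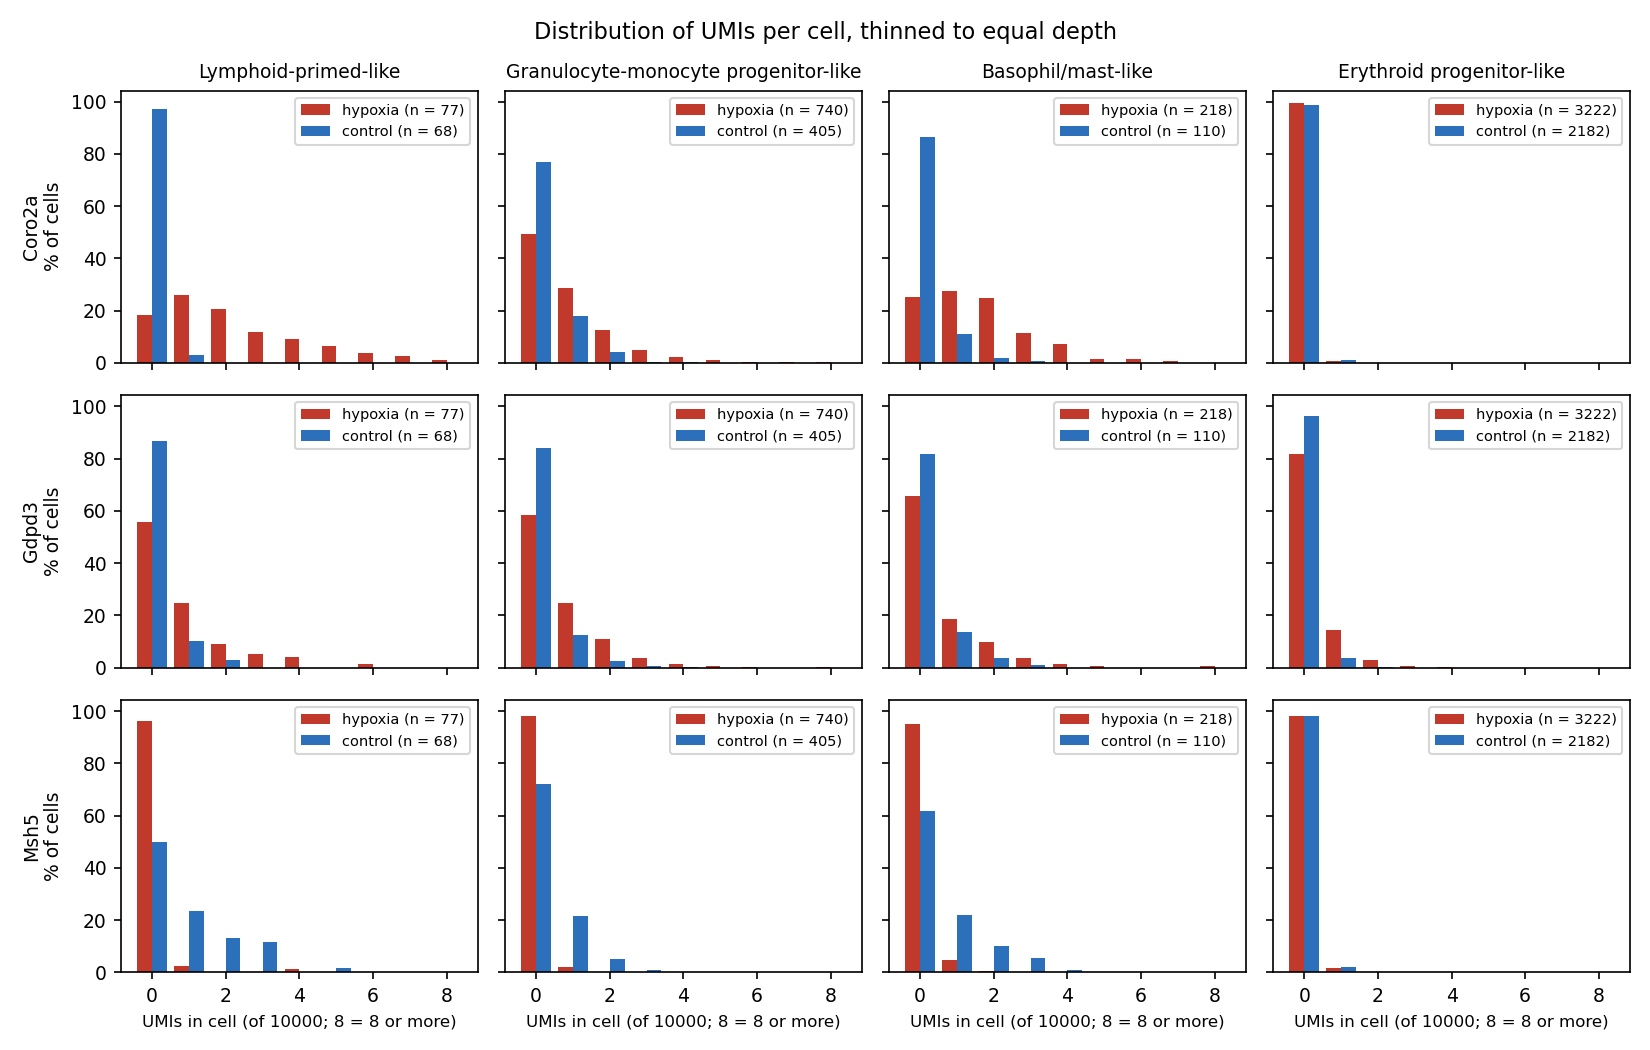
Share of cells (%) by the number of UMIs of each gene per cell after thinning to 10000 UMIs, in 4 classes, with hypoxia in red, control in blue and the number of cells deep enough in each legend. Coro2a in lymphoid-primed-like and basophil/mast-like hypoxia cells peaks at 1 UMI, and all other panels peak at 0.

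Counts of cells with both Coro2a and Gdpd3 lay near what their separate shares give. At 5000 UMIs, 55 of 756 hypoxia granulocyte-monocyte progenitor-like cells held both, where the product of the shares gives 66.4. In monocyte-like cells the number was 88 of 537 against 77.6, and in basophil/mast-like cells 56 of 407 against 53.0. Cells of 1 library are not replicates, so these counts describe that library.

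Related genes on the lists mostly stayed within 2-fold. Over all kept cells, where 7.95% of measured genes were at least 2-fold higher in hypoxia and 2.55% at least 2-fold lower, none of 5 measured coronins, 6 NCoR complex genes and 9 mismatch repair genes passed 2-fold. Gdpd2, a phosphodiesterase of the same family as Gdpd3, was lower in hypoxia with 6 UMIs against 69, a ratio of 0.0782 (0.0277 to 0.179), and was the only one of 5 measured. Of 10 N-acylethanolamine and lysophosphatidic acid genes, Plpp3 (0.720 against 3.23 CPM) and the receptor gene Lpar1 (0.255 against 0.517 CPM) were lower and the receptor gene Lpar5 (0.420 against 0.2002 CPM) was higher. Of 7 meiotic genes, Spo11, which makes the breaks that start recombination, was higher, with 48 UMIs against 8. These values pool all classes. Granulocyte-monocyte progenitor-like cells held 3 against 0 Gdpd2, 0 against 1 Plpp3, 1 against 17 Lpar1, 13 against 4 Lpar5 and 2 against 0 Spo11 UMIs. Erythroid progenitor-like cells held 2 against 6, 26 against 55, 3 against 3, 13 against 13 and 7 against 3 in that order. The part of class composition in the pooled differences was not tested. In granulocyte-monocyte progenitor-like cells, where 2.18% of measured genes were at least 2-fold higher in hypoxia and 1.54% at least 2-fold lower, none of 4 measured coronins, 6 NCoR complex genes, 3 other glycerophosphodiesterases, 6 N-acylethanolamine and lysophosphatidic acid genes, 9 mismatch repair genes and 3 other meiotic genes passed 2-fold. Their median log2 ratios lay between -0.03 and 0.32, against 0.01 for all measured genes. Coro1a, the main leukocyte coronin, was at 551 against 444 CPM and Coro1c, a widely expressed coronin, at 81.3 against 62.3 CPM. Ncor1, the corepressor itself, was at 237 against 316 CPM. Gde1, another family phosphodiesterase, was at 27.3 against 26.8 CPM, and Napepld, which makes N-acylethanolamines, at 5.21 against 5.30 CPM. Msh4, the partner of Msh5, was near absent with 4 UMIs against 0.

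In erythroid progenitor-like cells 7.15% of measured genes were at least 2-fold higher and 2.31% at least 2-fold lower. Of the lists, Coro1a (6.02 against 2.79 CPM) and Abhd4, a hydrolase that acts before Gdpd3-type enzymes in N-acylethanolamine synthesis (19.8 against 7.69 CPM), were higher. Naaa, which degrades N-acylethanolamines (1.50 against 3.69 CPM), and Plpp3, a lipid phosphatase (0.284 against 0.602 CPM), were lower. None of 6 NCoR complex, 3 other glycerophosphodiesterase, 9 mismatch repair or 6 meiotic genes passed 2-fold.

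The genes next to the members on the chromosome behaved differently by class. In granulocyte-monocyte progenitor-like cells, 18 of the 30 nearest protein-coding neighbours (5 on each side of each member) were measured. Sapcd1, beside Msh5, was the only one past 2-fold, and it was lower in hypoxia. Of all genes measured in this class, 2.18% were at least 2-fold higher and 1.54% at least 2-fold lower. In erythroid progenitor-like cells 4 of 19 measured neighbours were at least 2-fold higher in hypoxia, namely Coro1a, Ypel3, Sapcd1 and Clic1, and none was 2-fold lower, against the 7.15% and 2.31% of all measured genes. Sapcd1 lies downstream of Msh5 on the same strand, after a gap of 588 bases. In granulocyte-monocyte progenitor-like cells Sapcd1 was lower in hypoxia, at 1.06 against 5.81 CPM, or 0.183 times (0.104 to 0.308). It was also lower in HSC/MPP-like cells, at 5.47 against 36.3 CPM, in monocyte-like cells, at 2.25 against 11.2 CPM, and in basophil/mast-like cells, at 2.36 against 10.8 CPM. In lymphoid-primed-like cells, the class with the highest control level of Msh5, Sapcd1 was at 20.98 against 28.75 CPM and the interval of the ratio held 1 (0.446 to 1.19), as it did in megakaryocyte-like (0.117 to 1.49) and neutrophil-like cells (0 against 3 UMIs). Where Msh5 was level, in erythroid progenitor-like cells, Sapcd1 was 14.7-fold higher in hypoxia (10.2 to 21.8), with 4.97 and 0.339 CPM.

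Reads that span the end of Msh5 and the start of Sapcd1 cannot be seen in tables of gene counts. Clic1, a chloride channel protein on the other side of Msh5 and the opposite strand, had 193 and 184 CPM in granulocyte-monocyte progenitor-like cells and 83.2 and 41.3 CPM in erythroid ones.

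Ypel3, which follows Gdpd3 after 1305 bases on the same strand, was at 31.1 against 33.3 CPM in granulocyte-monocyte progenitor-like cells, a ratio whose interval held 1 (0.821 to 1.07). Erythroid progenitor-like cells had 25.3 CPM of it in hypoxia and 4.67 CPM in control, a ratio of 5.42 (4.89 to 6.03) beside 6.25 for Gdpd3. Mapk3, the ERK1 kinase gene that ends 514 bases before Gdpd3, was at 49.3 against 48.4 CPM in erythroid and 77.9 against 112 CPM in granulocyte-monocyte progenitor-like cells. Trim14 and Tbc1d2, the neighbours of Coro2a, were at 2.80 against 1.80 CPM and 12.8 against 10.6 CPM in granulocyte-monocyte progenitor-like cells, and both intervals held 1.

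**Figure D4:**
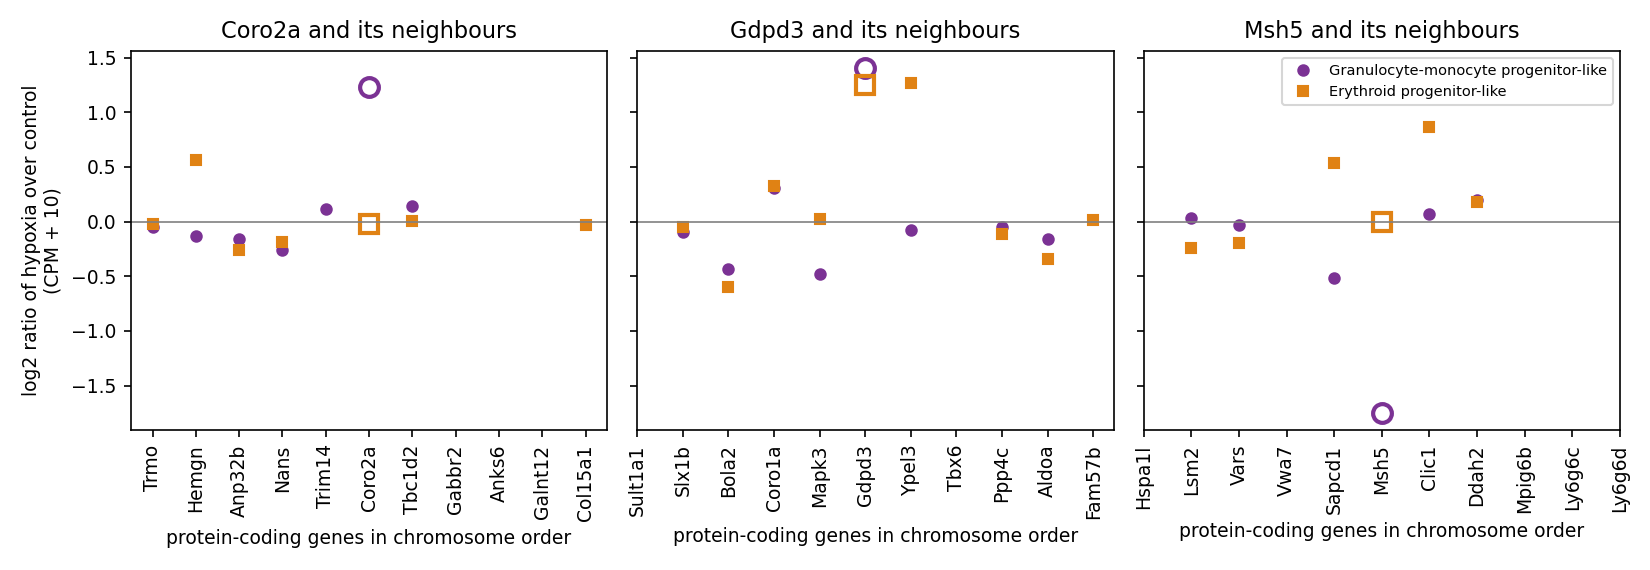
Log2 ratio of hypoxia over control (CPM + 10) for each gene (open symbols) and the protein-coding genes beside it in chromosome order, in granulocyte-monocyte progenitor-like (purple circles) and erythroid progenitor-like (orange squares) cells. Genes under 50 UMIs in a class have no symbol, and Ypel3 and Sapcd1 differ between the classes.

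Genes whose levels were most like those of each member over the classes were ranked by Pearson r of log2(CPM + 10) among 14061 genes, as a description over points that share libraries. Over the 8 hypoxia classes, Coro2a was most like H2-M3 (0.994), Smim24 (0.986) and Vps36 (0.981), and Gdpd3 most like Ptprc (0.978), Gramd1b (0.974) and Klf2 (0.973). Over the 8 control classes, Msh5 was most like Sept6 (0.972), Smad4 (0.970) and Taok2 (0.964). Over all 16 class and library values the leading genes were Gm44751 (0.833), Gm16845 (0.818) and Auh (0.794) for Coro2a and Dnah8 (0.926), Rsrp1 (0.919) and Zfp414 (0.917) for Gdpd3. For Msh5 they were Slc15a2 (0.955), Trim34a (0.924) and Ckm (0.864). The ranking over 16 values includes the library difference by which the members were chosen. A library difference in its leading genes therefore restates that choice. Slc15a2, a peptide transporter gene, was at 0.105 CPM in hypoxia against 8.77 CPM in control over all kept cells. Dnah8, a dynein gene, was at 6.35 against 0.784 CPM.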

How the data were processed

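The deposited tables hold UMI counts per cell and gene (RSEC-adjusted), made by the authors on GRCm38 and GENCODE vM19 in version 1.7.1 of BD's WTA Rhapsody pipeline, per the file headers. The submitters' processing notes also list Bowtie2. Cell calling is not described in the sources used here. Cells were read from both tables (137504361 and 121415081 UMIs), and Scrublet doublets (1.75% and 0.834%) and cells with 20% or more mitochondrial UMIs were removed. A class needed a marker sum past its gate (UMIs per 10000) and 2 markers detected, and Hlf for HSC/MPP. UMIs were summed by class and library with exact Poisson intervals, ratios have exact conditional binomial intervals, and thinning drew UMIs without replacement. The ratio and its interval were run only on simulated Poisson counts. That check does not cover the spread between cells beyond Poisson that these data show. Python 3.11.15, scipy 1.17.1 and scanpy 1.11.5 were used. The members, gene lists and marker lists were chosen with earlier results of these data known. Named genes are the members, the 3 most alike by each ranking, 5 neighbours on each side and the list members. Granule and globin terciles were chosen after the data were seen. Alternatives covered filters, scaling, the CPM added, depth, gates and Leiden clusters. Hspa1l, for which RefSeq lists an old shared name with Msh5, has its own column. No RefSeq stretch is shown for Msh5, since RefSeq models cover those bases.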

Additional observations from a re-analysis of the deposited data

Results flagged for a closer look

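Coro2a in neutrophil-like cells was singled out because its direction was opposite to that in the 6 classes whose intervals lay above 1: the ratio of hypoxia over control was 0.0924 (0.0104 to 0.389), from 2 hypoxia and 17 control UMIs. The log2 ratio of CPM + 10 was -2.07, and it was -2.07 with gates doubled, -2.13 in Leiden clusters and -2.14 without cells that pass more than 1 gate. Among cells with 5000 UMIs or more, 1 of 18 hypoxia cells (5.56%, 0.141% to 27.3%) held a Coro2a UMI at that depth. In control it was 7 of 25 (28%, 12.1% to 49.4%), and the intervals overlapped. Neutrophil-like control cells also had a higher median sum of monocyte markers, 18.9 against 9.50 UMIs per 10000 in hypoxia. The part of this in the Coro2a values was not tested. The difference between the classes was not tested, since each group is 1 library.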

How the results depend on the processing

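Directions over all cells held under every alternative run. The log2 ratios of CPM + 10 were 1.62 for Coro2a, 1.58 for Gdpd3 and -0.94 for Msh5. They were 1.75, 1.71 and -1.09 on totals without mitochondrial, globin and ribosomal protein genes, 2.06, 1.98 and -1.53 as means of per-cell CPM, and 2.53, 2.40 and -2.18 with 1 CPM added, and Msh5 was -0.98 with size factors. The shares of cells moved with depth. At 10000 UMIs they were 21.4% and 6.15% for Coro2a, 25.4% and 7.42% for Gdpd3 and 2.32% and 13.9% for Msh5 in hypoxia and control. Without thinning they were 31.1% and 11.7%, 43.1% and 16.9%, and 4.17% and 23.4%. Genes at least 4-fold apart made up 2.08%, and 17.4% with no minimum of UMIs. By class, 47 of 66 values stayed within their counting interval, 17 moved and 2 changed sign: in erythroid progenitor-like cells with gates doubled, Coro2a was at 0.0112 and Msh5 at 0.0435. Leiden clusters gave 6 of the 8 classes, without HSC/MPP-like and lymphoid-primed-like cells. Added after seeing the data, the ratio of the highest to the lowest protease tercile for Coro2a in hypoxia was 0.374 without cells holding S100a8 or S100a9 UMIs, in place of 0.235, and hypoxia over control in the highest tercile was 1.74 in place of 0.817. No paired analysis was possible because each group is 1 library. The cause of these changes was not tested.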
